A study of Oryza sativa Japonica Group with 6 samples.

Results

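MADS-box transcription factor genes of 4 groups, named after the Arabidopsis genes AGL17, SVP, SOC1 and AGL12, were followed in root tips of rice seedlings with and without mutations in PLT genes. The 9 genes were chosen by locus identifier, with no measured value in the rule, from the 31010 genes listed in the expression table. MADS23, MADS25, MADS27 and MADS57 are AGL17-like, MADS22, MADS47 and MADS55 are SVP-like, and MADS56 is SOC1-like. MADS26, set beside these groups, is by textbook classification AGL12-like and belongs to none of the other 3. RNA-seq libraries came from the terminal part of the root, about 0.8 cm long, of Japonica seedlings 7 days old grown on Murashige and Skoog medium with light and dark cycles and no treatment. The plt345 group had 3 libraries of a triple mutant of PLT3, PLT4 and PLT5, and the wild type group had 3 libraries of ZH11. The kind of mutation, the number of independent mutant lines and the number of pooled seedlings are not stated in the labels. Nor do the labels say that the libraries are separate cultures, and p-values therefore cover only the spread among these libraries, which may be technical.

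MADS-box proteins bind DNA as dimers through a conserved domain that recognises CArG-box sequences, and the plant MIKC type carries a further K domain for contacts with partners. Best known from flowers and flowering time, the family also has groups that act in roots. In Arabidopsis the AGL17-like gene ANR1 links nitrate supply to lateral root growth, and rice AGL17-like genes act in root growth, nitrate and stress responses. Several of them, MADS23, MADS27 and MADS57 among them, are targets of the monocot microRNA miR444. The SVP-like genes of rice restrain brassinosteroid responses, and the SOC1-like genes MADS50 and MADS56 act in flowering time. PLT proteins, of the AP2 type, maintain root meristems.

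The libraries held between 20759896 and 21309371 reads counted on genes. Values below are normalized counts, that is, reads divided by the size factor of each library, given as mean ± SD over 3 libraries per genotype. Log2 fold changes compare plt345 with wild type, positive where plt345 is higher, computed from log2(value + 1), each with its limma standard error (SE), and p-values are adjusted by Benjamini-Hochberg over the 23166 genes with a mean of at least 10. The loci entered as the mutated genes, whose symbols the reference table does not hold, kept transcripts. PLT3 (LOC_Os02g40070) was at 576.4 ± 19.8 in plt345 and 579.5 ± 5.92 in wild type, PLT4 (LOC_Os04g42570) at 231.4 ± 12.99 and 269.8 ± 19.8, and PLT5 (LOC_Os01g67410) at 1268 ± 9.02 and 531.2 ± 28.9, in the same order of genotypes. Such levels do not check the genotype. Root markers were present. QHB, SHR1, PIN2 and LSI1 summed to between 7905 and 8100 in plt345 libraries and between 6169 and 6240 in wild type libraries. The sum hides opposite changes, since QHB and LSI1 were higher in plt345, PIN2 was lower and SHR1 did not pass the threshold used below. LSI1, also a differentiated root marker below, was at 4417 ± 128 in plt345 and 1132 ± 10.0 in wild type. PIN2 was at 3182 ± 61.1 and 4755 ± 19.5 in the same order. Of 9 shoot organ markers 6 were listed, summing to between 15.7 and 25.5 in plt345 libraries and between 54.2 and 64.5 in wild type libraries, where CAB1R held most of it. YAB2, YAB4 and DL were looked up but were not among the genes listed in the expression table.

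Of the 9 MADS genes, 8 passed the filter on low values, and each of these 8 differed between the genotypes. All 4 AGL17-like genes and MADS22 were lower in plt345, while MADS47, MADS56 and MADS26 were higher. The widest changes were those of MADS57, at 50.05% of its wild type level, and of MADS56 and MADS26, 1.98-fold and 1.96-fold higher. The background of calls was high. Over all tested genes 68.0% passed the same threshold, 34.0% higher and 34.0% lower, so 8 of 8 called genes, with 3 higher and 5 lower, is not far from that background. In all 8 the values of the genotypes were fully apart, as in 71.0% of tested genes. An exact permutation test of 3 libraries against 3, two-sided, gave p = 0.1 for each of the 9 genes, the smallest p it allows. The median absolute log2 fold change was 0.63 over the 8 genes and 0.32 over all tested genes, and none of the 8 reached an absolute log2 fold change of 1, which 16.7% of tested genes did with an adjusted p under 0.05. Under other methods 8 of 8 passed in edgeR, against 68.6% of all genes, 7 of 8 in DESeq2, against 60.6%, and 7 of 9 in the authors' deposited table, against 49.6%. With library totals as scaling 7 of 8 passed, against 66.3%, and with replicate number as a block 8 of 8, against 68.7%.

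**Figure D1:**
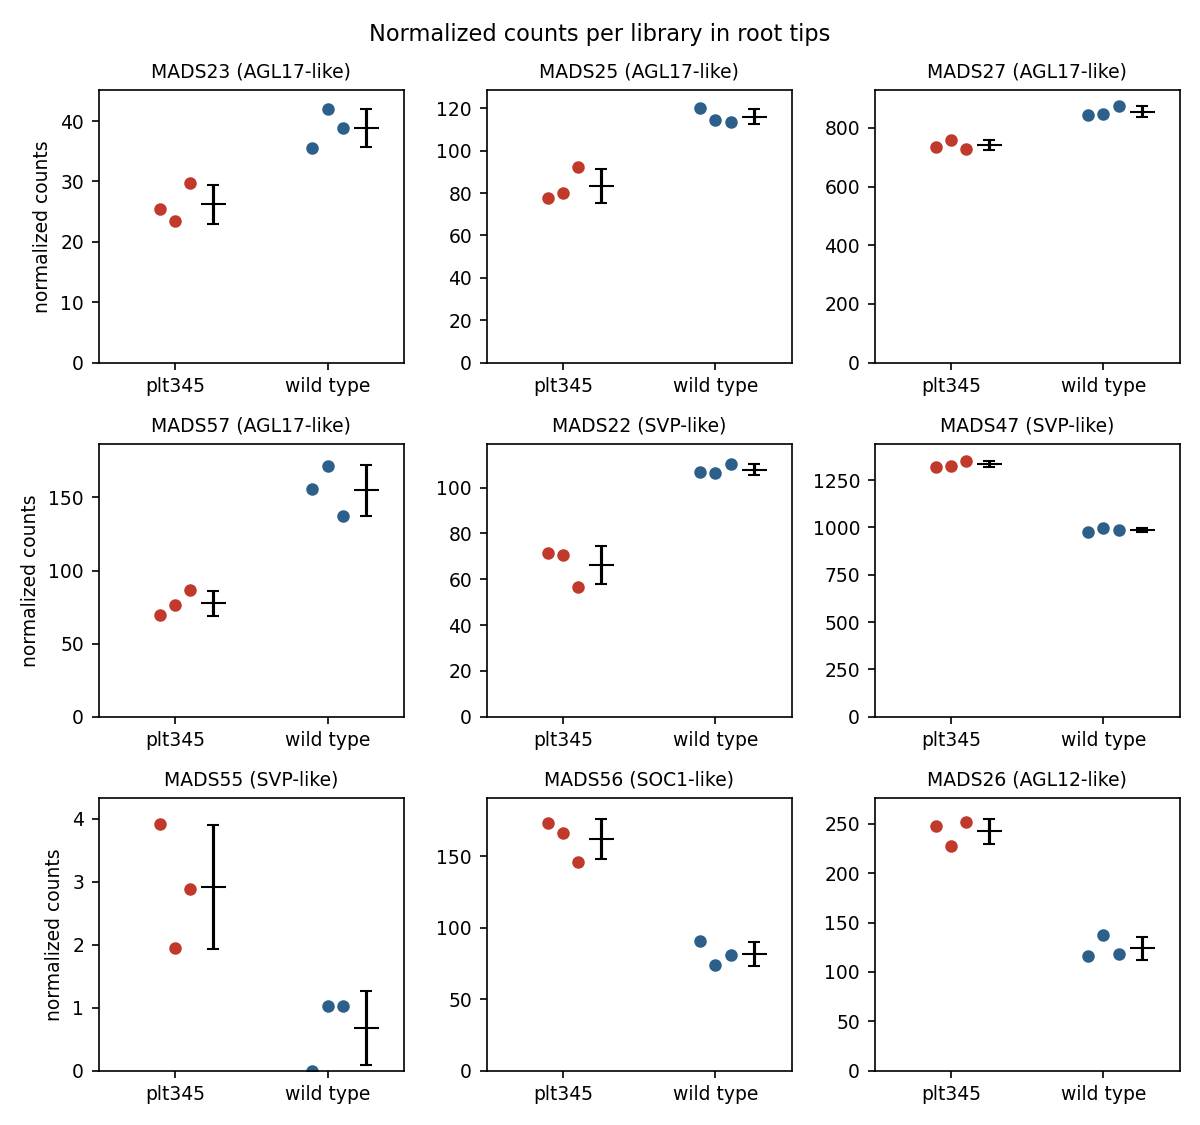
Normalized counts (vertical axis, from 0, a separate scale per gene) of the 9 MADS genes in each of 3 plt345 and 3 wild type libraries, with mean ± SD beside the points. The plt345 points lie below the wild type points for MADS23, MADS25, MADS27, MADS57 and MADS22, and above them for MADS47, MADS55, MADS56 and MADS26.

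The AGL17-like genes fell together, by unequal amounts. MADS57 (LOC_Os02g49840), which in rice represses the strigolactone receptor gene D14 and acts in tillering and nitrate transport, had 69.6, 76.3 and 86.5 normalized counts in the plt345 libraries, against 155.6, 171.8 and 137.1 in the wild type libraries. Its highest plt345 library was 50.6 normalized counts below its lowest wild type library. The means were 77.5 ± 8.52 in plt345 and 154.8 ± 17.4 in wild type, a log2 fold change of -0.99 ± 0.13 (SE, adjusted p = 1.38e-07 in limma). Of all tested genes, 3.03% had a lower log2 fold change than MADS57.

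MADS25 (LOC_Os04g23910), a promoter of primary and lateral root growth in rice, had 77.5, 80.2 and 92.3 normalized counts in the plt345 libraries, against 120.0, 114.6 and 113.6 in the wild type libraries. The wild type libraries lay close together, and the nearest plt345 library was 21.3 normalized counts below them. MADS25 fell to 83.3 ± 7.90 in plt345, against 116.0 ± 3.46 in wild type, a log2 fold change of -0.48 ± 0.12 (SE, adjusted p = 0.0015 in limma).

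MADS23 (LOC_Os08g33488), which acts in drought and salt tolerance through abscisic acid, was the AGL17-like gene with the fewest reads. It had 25.5, 23.5 and 29.8 normalized counts in the plt345 libraries, against 35.6, 41.9 and 38.9 in the wild type libraries. The groups were 5.78 normalized counts apart, with means of 26.3 ± 3.23 in plt345 and 38.8 ± 3.17 in wild type and a log2 fold change of -0.55 ± 0.21 (SE, adjusted p = 0.0217 in limma). With 24 to 31 reads per plt345 library and 35 to 41 per wild type library, counting error alone amounts to a coefficient of variation of 19.2% and 16.2%. The 95% interval of the log2 fold change ran from -0.98 to -0.12. The call of MADS23 was lost in DESeq2, in the authors' deposited table, with library totals as scaling, without plt345 replicate 2 and without wild type replicate 2, where its adjusted p lay between 0.0514 and 0.124.

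MADS27 (LOC_Os02g36924), which acts in nitrate-dependent root growth and salt tolerance in rice, had a small and well measured decrease. Its plt345 libraries had 734.4, 760.2 and 727.9 normalized counts, against 844.1, 846.9 and 875.8 in the wild type libraries. No library of one genotype came within 83.8 normalized counts of the other. The means were 740.8 ± 17.1 in plt345 and 855.6 ± 17.6 in wild type, 13.4% lower in plt345, with a log2 fold change of -0.21 ± 0.05 (SE, adjusted p = 0.00034 in limma). That value lies within the bulk of all genes, of which 30.7% had a lower log2 fold change. With library totals as scaling the log2 fold change of MADS27 was -0.12 (limma adjusted p = 0.028).

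Since the decreases were unequal, the make-up of the AGL17-like reads differed between genotypes. These shares are of normalized counts and are not divided by transcript length, which no source used here gives. Neither the shares nor the size of their difference between genotypes can be read as shares of transcripts. For a ratio of 2 genes, a length that is the same in both genotypes cancels in the fold between genotypes. The 4 genes summed to 927.9 ± 18.2 normalized counts in plt345 and 1165 ± 9.98 in wild type. MADS27 held 79.8% ± 1.84 of the sum in plt345 and 73.4% ± 1.58 in wild type, and MADS57 held 8.34% ± 0.807 in plt345 and 13.3% ± 1.44 in wild type (SD, n = 3 each). The shares of MADS25, at 8.98% ± 0.762 in plt345 and 9.96% ± 0.370 in wild type, and of MADS23, at 2.83% ± 0.343 and 3.33% ± 0.244 in the same order, overlapped between the genotypes. The ratio of MADS57 to MADS27 was 0.0948, 0.1004 and 0.119 in the plt345 libraries, against 0.184, 0.203 and 0.157 in the wild type libraries, without overlap. The ratios of MADS25 to MADS27, at 0.113 ± 0.0123 in plt345 and 0.136 ± 0.00626 in wild type, and of MADS23 to MADS27, at 0.0355 ± 0.00508 and 0.0454 ± 0.00377 in the same order, did not overlap either. These shares and ratios are descriptions without a test, and further AGL17-like genes of rice, whose symbols the reference table does not hold, were not analysed here.

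**Figure D2:**
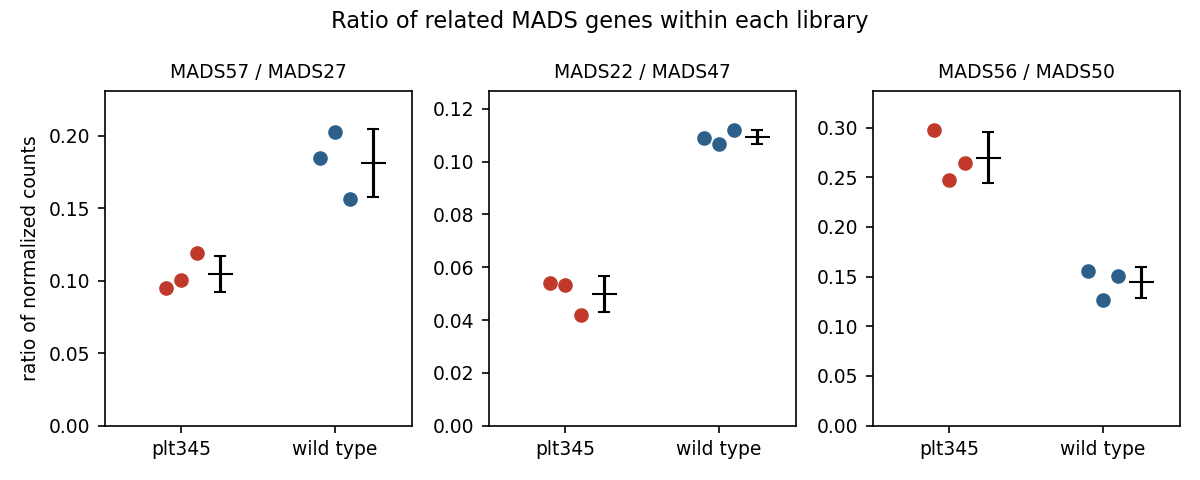
Ratio of normalized counts of 2 related MADS genes within each library (vertical axis, from 0, not divided by transcript length) for 3 plt345 and 3 wild type libraries, with mean ± SD beside the points. The ratios MADS57 to MADS27 and MADS22 to MADS47 were lower in every plt345 library than in any wild type library, and the ratio MADS56 to MADS50 was higher.

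The SVP-like genes moved apart. MADS47 (LOC_Os03g08754), a repressor of brassinosteroid responses in rice, had 1321, 1327 and 1351 normalized counts in the plt345 libraries, against 978.3, 996.2 and 987.3 in the wild type libraries. The libraries of each genotype differed by little, with a coefficient of variation of 1.20% in plt345 and 0.907% in wild type. MADS47 averaged 1333 ± 16.0 in plt345 and 987.3 ± 8.96 in wild type, 1.35-fold higher, with a log2 fold change of 0.43 ± 0.04 (SE, adjusted p = 6.38e-10 in limma). Among all tested genes 25.02% had a higher log2 fold change.

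MADS22 (LOC_Os02g52340), whose overexpression in rice alters spikelet meristems, went the other way. It had 71.6, 70.4 and 56.7 normalized counts in the plt345 libraries, against 106.8, 106.4 and 110.5 in the wild type libraries. Replicate 3 of plt345 was the lowest, and even the highest plt345 library lay 34.8 normalized counts below wild type. MADS22 fell to 66.3 ± 8.26 in plt345, against 107.9 ± 2.27 in wild type, a log2 fold change of -0.70 ± 0.14 (SE, adjusted p = 6.4e-05 in limma). The ratio of MADS22 to MADS47 was 0.0542, 0.0531 and 0.0420 in the plt345 libraries and 0.109, 0.107 and 0.112 in the wild type libraries, 2.196-fold lower in plt345 by the means.

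MADS55 (LOC_Os06g11330), the other SVP-like repressor of brassinosteroid responses, was barely detected. It had 4, 2 and 3 reads in the plt345 libraries, against 0, 1 and 1 in the wild type libraries, or 3.92, 1.96 and 2.88 normalized counts against 0, 1.02 and 1.02. Each plt345 library was above each wild type library, but by 0.934 normalized counts, about the value of 1 read. The ratio of reads, scaled by depth, was 4.29 with a 95% exact binomial interval of 0.888 to 40.8, which covers counting error only and includes 1. MADS55 was below the mean of 10 and was not tested. With no filter on low values limma called it higher (adjusted p = 0.0293 in limma, log2 fold change 1.26 ± 0.44 SE), while the authors' deposited table gives 2.101 with an SE of 1.49 for the same quantity (DESeq2 adjusted p = 0.247).

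MADS56 and MADS26 both rose. MADS56 (LOC_Os10g39130), which delays flowering of rice in long days, had 173.6, 166.3 and 146.2 normalized counts in the plt345 libraries, against 90.5, 73.6 and 80.8 in the wild type libraries. The lowest plt345 library was 55.7 normalized counts above the highest wild type library. MADS56 averaged 162.0 ± 14.2 in plt345 and 81.7 ± 8.46 in wild type, a log2 fold change of 0.98 ± 0.12 (SE, adjusted p = 7.74e-08 in limma). Its SOC1-like relative MADS50 (LOC_Os03g03070), a promoter of flowering, had 582.4, 673.1 and 553.9 normalized counts in the plt345 libraries and 581.7, 584.0 and 536.1 in the wild type libraries. These overlapped, and MADS50 did not pass the threshold (adjusted p = 0.243 in limma, log2 fold change 0.08 ± 0.06 SE). The ratio of MADS56 to MADS50 was 0.270 ± 0.0259 in plt345 and 0.144 ± 0.0158 in wild type, 1.87-fold higher by the means and without overlap.

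MADS26 (LOC_Os08g02070), of the AGL12-like group and a regulator of stress and pathogen responses in rice, had 248.1, 228.0 and 251.9 normalized counts in the plt345 libraries, against 115.9, 137.1 and 118.7 in the wild type libraries. The gap between the groups was 90.9 normalized counts. The means were 242.7 ± 12.9 in plt345 and 123.9 ± 11.5 in wild type, a log2 fold change of 0.97 ± 0.10 (SE, adjusted p = 2.44e-09 in limma). Rises of this size were common in these libraries, with 14.0% of tested genes above MADS56 and 14.2% above MADS26 in log2 fold change. The other AGL12-like gene, MADS33 (LOC_Os12g10520), was too low to test, with 5, 10 and 8 reads in the plt345 libraries and 5, 1 and 2 in the wild type libraries. Its ratio of reads was 2.74, with a counting interval of 1.18 to 7.09, and the groups overlapped in normalized counts.

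**Figure D3:**
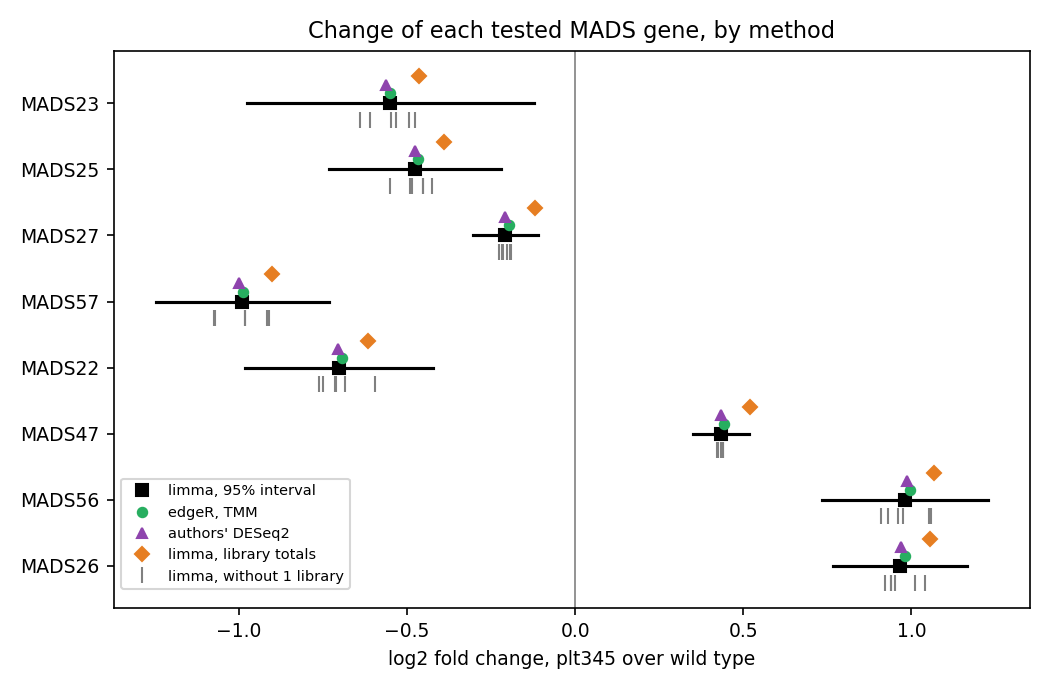
Log2 fold change, plt345 over wild type, of the 8 tested MADS genes (horizontal axis) from limma, with its 95% interval, and from edgeR, the authors' DESeq2 table, limma with library totals, and limma without each library in turn. Every value kept its direction, and library totals moved each one upward, by 0.09 at the median of all tested genes.

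**Figure D4:**
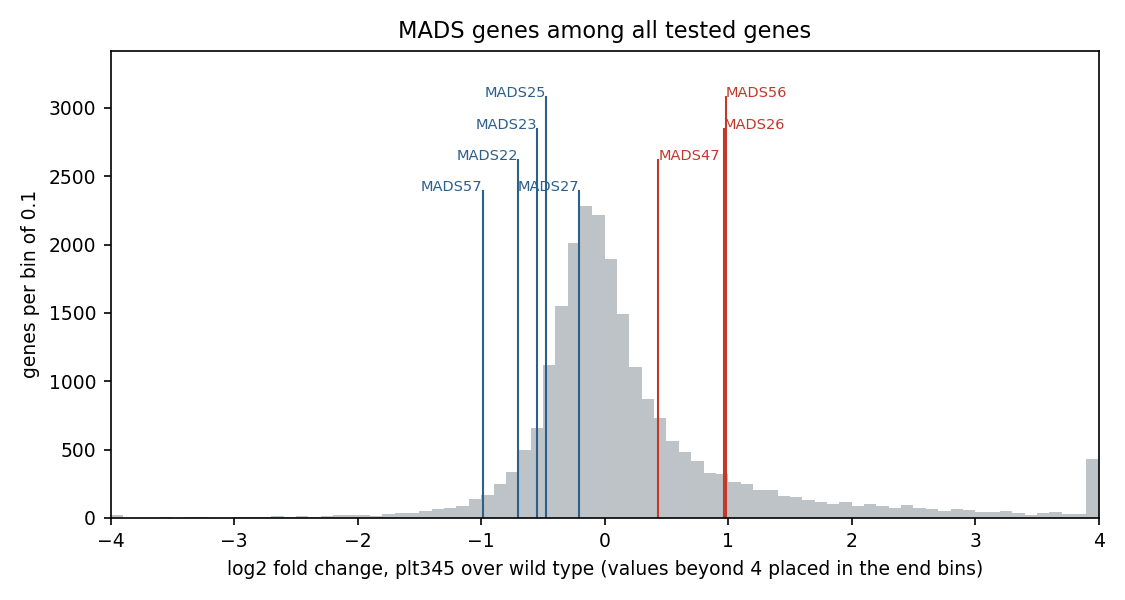
Number of tested genes (vertical axis) per 0.1 of log2 fold change, plt345 over wild type (horizontal axis), with lines at the 8 tested MADS genes. The MADS genes lie between -0.99 and 0.98, MADS27 within the bulk of the distribution, and the long tail of high values on the right holds none of them.

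Precision followed the number of reads. For MADS27 and MADS47, with 749 to 1405 reads per plt345 library and 828 to 974 per wild type library, the coefficient of variation expected from counting alone was between 2.70% and 3.62%, and the observed one between 0.907% and 2.31%. For MADS57 counting alone gives 11.2% in plt345 and 8.12% in wild type, and the observed values were 10.997% in plt345 and 11.2% in wild type. Apart from MADS57 in wild type, the libraries of a genotype varied by about as much as counting predicts or less for each of the 9 genes, as far as 3 libraries per genotype can show.

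Other MIKC genes of rice, mostly floral, served as a comparison within the family. Of 20 with a symbol in the table of reference names, 12 were listed and 5 were tested. Of these 2 were higher in plt345, 0 were lower and 3 fell short of the threshold. Their median log2 fold change was 0.14. Beside it stand 3 higher and 5 lower and a median of -0.34 for the tested MADS genes followed here, and a median of -0.01 for all tested genes. MADS16 (LOC_Os06g49840), which specifies lodicules and stamens, had 440 reads summed over plt345 and 4 over wild type, 105-fold more with a 95% counting interval from 40.7 to 387. All 4 wild type reads came from replicate 3, and without that library wild type has no read and the fold is undefined. MADS16 passed the filter on low values only through its plt345 libraries, with a mean of 142.9 against 1.36 in wild type. It could not have been counted as lower, and the counts and median of this list include it. MADS30 (LOC_Os06g45650), of the Bsister group, was at 62.7 ± 4.98 in plt345 and 65.0 ± 0.526 in wild type and did not pass (adjusted p = 0.758 in limma, log2 fold change -0.06 ± 0.15 SE). MADS18 (LOC_Os07g41370), an AP1-like gene named here after its values were seen, rose to 63.6 ± 6.48 in plt345, against 19.4 ± 3.63 in wild type (adjusted p = 8.6e-08 in limma, log2 fold change 1.67 ± 0.21 SE).

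Genes reported in rice as targets or partners of the MADS proteins were read next. D14 (LOC_Os03g10620), the strigolactone receptor gene that MADS57 represses, had 4465, 4303 and 4336 normalized counts in the plt345 libraries, against 2653, 2395 and 2330 in the wild type libraries. All plt345 libraries were above all wild type libraries, 1.78-fold by the means (adjusted p = 7.08e-16 in limma, log2 fold change 0.83 ± 0.04 SE). NRT2.3 (LOC_Os01g50820), a nitrate transporter gene reported as a MADS57 target, was at 189.9 ± 19.2 in plt345 and 167.8 ± 15.1 in wild type and did not pass (adjusted p = 0.119 in limma, log2 fold change 0.18 ± 0.10 SE). SAPK9 (LOC_Os12g39630), a kinase gene of abscisic acid signalling whose protein phosphorylates MADS23, was 1.93-fold higher, at 924.3 ± 34.6 in plt345 and 479.5 ± 12.1 in wild type (adjusted p = 1.18e-14 in limma, log2 fold change 0.94 ± 0.05 SE). Of all tested genes 16.1% were above D14 and 14.5% above SAPK9 in log2 fold change, and 71.0% had the genotypes fully apart. Whether the levels of D14, NRT2.3 or SAPK9 depend on the MADS genes was not tested.

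Brassinosteroid genes, the pathway of the SVP-like group, went both ways. Of 7 tested genes 3 were higher and 4 lower in plt345, and the median log2 fold change was -0.18. Among the lower genes BU1 (LOC_Os06g12210), named after its values were seen, passed the filter on low values only through wild type. Its mean was 8.44 in plt345 and 20.1 in wild type. Beside this list and those that follow, 34.0% of all tested genes were higher and 34.0% lower. BRD1 (LOC_Os03g40540), a C-6 oxidase gene of brassinosteroid synthesis, rose to 1646 ± 43.0 in plt345, against 856.0 ± 44.7 in wild type, and BZR1 (LOC_Os07g39220), the transcription factor of the pathway, rose to 1525 ± 23.9, against 1158 ± 23.1. D11 (LOC_Os04g39430), a cytochrome P450 gene of the same synthesis, fell to 528.9 ± 14.1 in plt345, against 737.1 ± 16.8 in wild type, and GSK2 (LOC_Os05g11730), a kinase gene that restrains the pathway, fell to 2670 ± 75.3, against 3141 ± 73.9.

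Of 6 tested genes of abscisic acid and its responses, 5 were higher and 1 lower, and the median log2 fold change was 0.97. ABA8OX2 (LOC_Os08g36860), which encodes an enzyme of abscisic acid breakdown, had 253.2 ± 20.4 normalized counts in plt345 and 23.8 ± 3.11 in wild type, 10.6-fold higher. BZIP23 (LOC_Os02g52780), a transcription factor gene of abscisic acid responses, was 1.99-fold higher, at 551.7 ± 28.3 and 277.4 ± 36.1 in the same order. P5CS1 (LOC_Os05g38150), of proline synthesis, was the gene that fell, to 2652 ± 49.2 in plt345, against 2955 ± 174 in wild type.

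Of 6 tested nitrate genes 2 were higher, 0 lower and 4 short of the threshold, and the median log2 fold change was 0.07. NAR2.1 (LOC_Os02g38230), the partner of NRT2 nitrate transporters, was 3.15-fold higher, at 385.8 ± 6.87 in plt345 and 122.5 ± 3.34 in wild type. The transcription factor genes NLP1 (LOC_Os03g03900), at 939.1 ± 30.2 in plt345 and 993.8 ± 40.1 in wild type, and NLP3 (LOC_Os01g13540), at 1057 ± 11.96 and 1087 ± 20.1, did not pass (limma adjusted p = 0.119 and 0.396). The other gene that rose, NRT2.2 (LOC_Os02g02190), named after its values were seen, had 111 reads over the plt345 libraries and 4 over the wild type libraries. It passed the filter on low values only through plt345, with a mean of 36.0 against 1.36 in wild type. NRT2.2 could therefore not have been counted as lower. NRT2.2 is close in sequence to NRT2.1, and how reads matching both were assigned is unknown. NRT2.1 (LOC_Os02g02170) and NAR2.2 (LOC_Os04g40410) were too low to test. NRT2.1 had 52 reads over the plt345 libraries and 4 over the wild type libraries, and NAR2.2 had 23 and 3. Their ratios of reads were 12.4 and 7.31, with counting intervals of 4.56 to 47.2 and 2.21 to 38.0.

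**Figure D5:**
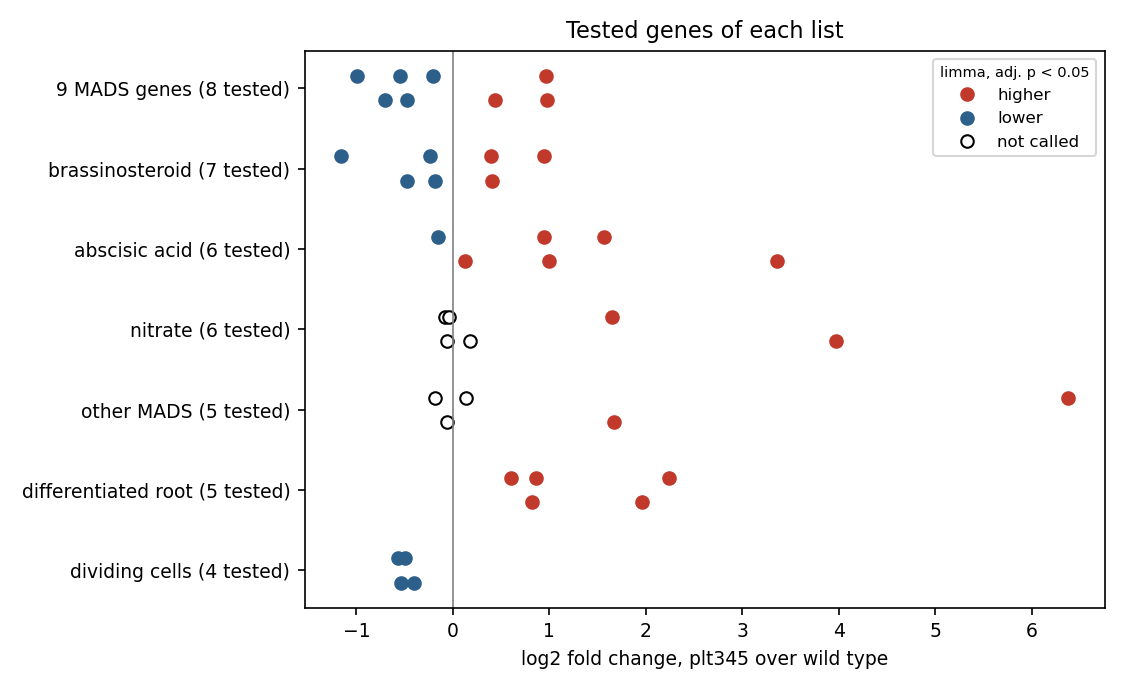
Log2 fold change, plt345 over wild type (horizontal axis), of each tested gene, by list, with filled points for genes past limma adjusted p under 0.05 and open points for the others. The MADS genes spread on both sides of 0, the 5 differentiated root markers lie above 0 and the 4 dividing cell markers below it.

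Markers of cell state moved in the same libraries. All 4 markers of dividing cells (PCNA, MCM4, CYCB2;2 and CYCD4;1) were lower in plt345, with a summed level of 4071 to 4229 in plt345 libraries and 5643 to 5830 in wild type libraries. All 5 markers of differentiated root (LSI1, LSI2, CESA4, CESA7 and CESA9) were higher, with sums of 10706 to 10968 and 3893 to 3986 in the same order. In bulk root tips fewer cells of a type and less RNA per cell cannot be told apart, and the part of these shifts in the changes of the MADS genes was not tested.

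Likeness was measured as the root mean square difference between the log2 values of 2 genes over the 6 libraries, each taken relative to its own wild type mean, among 38 other listed genes with a mean of at least 50. The profiles nearest to MADS57 were those of MADS22 (0.30), PIN2 (0.32) and CYCB2;2 (0.32). MADS26 had much closer neighbours, BRD1 (0.09), BZIP23 (0.10) and SAPK9 (0.10), with log2 fold changes of 0.944, 0.996 and 0.945 beside its own 0.97. In a comparison of 2 genotypes such likeness mostly reflects the size of 1 difference. No candidate was lowered as far as MADS57, the nearest being MADS22 with a log2 fold change of -0.70. The closer neighbours of MADS26 therefore reflect which genes were listed.

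Loci next to the MADS genes were read by the order of the locus numbers, as a description. Of the 36 nearest tested loci, 2 on each side of each MADS gene, 15 were higher, 10 lower and 11 short of the threshold, beside 34.0% higher and 34.0% lower over all tested genes. Gene by gene the picture was mixed. Of the 4 loci beside MADS26, which rose, 3 were higher and 1 lower, while beside MADS47, which also rose, 0 were higher and 2 lower. Beside MADS22, which fell, 0 were higher and 2 lower. Beside MADS57, which fell, 2 were higher, 1 lower and 1 short of the threshold. On the side of lower locus numbers LOC_Os02g49820 was lower (adjusted p = 0.0396 in limma, log2 fold change -0.35 ± 0.15 SE). LOC_Os02g49830 did not pass (adjusted p = 0.103 in limma, log2 fold change -0.38 ± 0.20 SE). The 2 loci that rose lie on the other side. LOC_Os02g49850 had 496.7 ± 34.4 normalized counts in plt345 and 104.5 ± 2.85 in wild type (adjusted p = 4.72e-18 in limma, log2 fold change 2.24 ± 0.08 SE). LOC_Os02g49860 had 44.2 ± 7.61 in plt345 and 16.3 ± 4.09 in wild type (adjusted p = 1.42e-05 in limma, log2 fold change 1.39 ± 0.24 SE). LOC_Os02g49850 and LOC_Os02g49860 were picked out after their values were seen, and the sources used here give them no name.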

How the data were processed

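Root tip RNA of 3 plt345 and 3 wild type libraries was read from both ends on the BGISEQ-500 platform, per the labels' protocols. Per the submitters' processing notes the tools were DESeq2 1.38.3, featureCounts 2.0.0 and HISAT2; parameters are not given. The genome build, the strand setting and the handling of reads shared between related genes are not given in these sources either, which leaves values of close relatives uncertain. The authors deposited size-factor-normalized counts per library, a signal that is never negative, and their DESeq2 log2 fold changes with standard errors, Wald statistic (a score), p-values and adjusted p-values, per the file headers. Dividing by the value of 1 read gave whole numbers, within 0.01 of a read, for 100% of values, and these recovered reads served the count tests. edgeR called 15901 genes on them.

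The test was limma 3.58.1 on log2(value + 1) for genes with a mean of at least 10 (trend, two-sided, R 4.3.3) over the whole table, at adjusted p under 0.05. A pseudocount of 1 makes fold changes of low genes too small. Alternatives were edgeR 4.0.16, DESeq2 1.42.0, the authors' table, library totals, other filters and pseudocounts, a replicate block, and leaving out each library. Libraries of one genotype differed by a chi-square per gene of 1.44 to 2.12, above sampling noise, and none was treated as a repeat. The fit was tested on simulated data, in which far fewer genes changed than were called here.

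Of 105 pairs of symbol and locus identifier, 77 had the symbol on the same chromosome of the reference table (assembly ASM3414082v1), all 9 MADS genes among them, at a median of 0.0326 Mb from the place interpolated from the other pairs. MADS25 and MADS26 lay farther, at 1.30 and 2.11 Mb. Each is beyond the outermost other pair of its chromosome, so its place was extended from the nearest pairs and is less certain. Apart from the PLT genes, pairs without such a match, 25 in all, were left out. The MADS genes and gene lists were chosen with earlier results of these data known. Named from each other list were up to 4 genes of smallest adjusted p with a mean of at least 50, and the clade mates, targets and partners, of which some are not reported here. No sequence of these genes was used.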

Additional observations from a re-analysis of the deposited data

How the results depend on the processing

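All 8 tested MADS genes kept their direction under each alternative that could test them, and 7 of them (all but MADS23) kept their call. MADS23 lost it with library totals (log2 fold change -0.46), without wild type replicate 2 (-0.49), without plt345 replicate 2 (-0.48), in DESeq2 (-0.55) and in the authors' deposited table (-0.56), and a filter at a mean of 50 left it untested. The cause was not tested. The number of MADS genes called ranged from 7 to 9, the 9 with no filter on low values, where MADS55 was added. Genes called over the whole table ranged from 13358 with the filter at 50 to 17166 with none. With library totals 60.8% of calls were higher, against 50.1% with the authors' size factors.

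The correlation of deviations between libraries of the same replicate number was 0.0240, 0.0193 and -0.000854. Between libraries of different numbers it ran from -0.0235 to 0.00517. All these values are small, and they cannot settle whether libraries were grown or processed in pairs. With the replicate number as a block 15913 genes were called, and the same 8 MADS genes, 3 higher and 5 lower. Without each library in turn the share of AGL17-like counts held by MADS57 differed (plt345 minus wild type) by -5.70 to -4.27 percentage points, and that of MADS22 among SVP-like counts by -5.32 to -4.76. Shares per length were not run, since no transcript length was at hand, so the size of these differences holds for counts only. At 0 to 4 reads per library MADS55, and at 24 to 41 MADS23, were the least precisely counted of the 9 genes.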
